A study of Mus musculus with 13 samples.

Results

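The 10 genes described here are parts of the IL-6/JAK/STAT pathway and of its feedback: both chains of the IL-6 receptor (*Il6ra* and *Il6st*), the kinase gene *Jak2*, the STAT genes *Stat3* and *Stat5a*, the feedback genes *Socs1*, *Socs2*, *Socs3*, and *Cish*, and the target kinase gene *Pim1*. They were taken by name from the 54838 genes of the count table, all 10 were found, and all 10 passed the filter on low counts that left 17795 genes for testing. RNA-Seq had been done on 50000 sorted Lin- cKit+ bone marrow cells (hematopoietic stem and progenitor cells, HSPCs) per mouse. Control mice (n = 3) carried Mx1-Cre alone, p53mut mice (n = 3) carried Mx1-Cre and p53 R172H/+, NrasG12D mice (n = 3) carried Mx1-Cre and an oncogenic Nras allele, G12D in their titles and G21D in their genotype field, and NPmut mice (n = 4) carried Mx1-Cre, p53 R172H/+, and Nras G12D/+. All mice were on a C57BL/6J background and all carried Mx1-Cre, whose promoter is inducible by interferon. Controls and single mutants had been injected with pI-pC (100 μg, 3 times, from about 6 weeks of age) and were age matched, but their ages at analysis were not given in the sources used here. NPmut mice were moribund and their labelled treatment was none, so that genotype, end-stage disease, and the missing injections cannot be told apart in any comparison with NPmut mice.

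IL-6 binds the α chain of its receptor, encoded by *Il6ra*, and the complex recruits gp130, the signaling chain encoded by *Il6st* that related cytokines such as LIF and oncostatin M also use. Janus kinases bound to gp130 phosphorylate mainly STAT3, whereas JAK2 bound to receptors for GM-CSF, IL-3, and erythropoietin activates mainly STAT5. SOCS proteins and CIS, the product of *Cish*, are transcribed in response to STATs and restrain the same receptors, so that their mRNA is often read as a sign of recent cytokine signaling in blood progenitors.

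Libraries held 12576174 to 29124022 counts. The median SD of a gene's log2 CPM (counts scaled to a library of 1000000) between mice was 0.351 in NPmut mice and 0.196 to 0.215 in the other groups. Reads on 1461 olfactory and vomeronasal receptor genes, which blood cells should not use, summed to 103 to 191 CPM (of plain totals) in control, 58.9 to 138 in p53mut, 37.8 to 44.4 in NrasG12D, and 17.5 to 57.3 in NPmut mice, and this background differed between groups in the same direction as *Socs2* and *Cish*. Its part in those results was tested only as a covariate in the fit. Background did not overlap between control and NPmut mice, so that this fit cannot separate it from genotype. *Kit*, the gene of the sorted marker, was present in every library and was lower in NPmut mice (288 to 450 CPM) than in controls (505 to 568 CPM, adjusted p = 0.0322). *Nras* and *Trp53* did not pass the test in NPmut against control mice (log2 fold changes of -0.14 and -0.28), whereas *Trp53* was lower than in p53mut and NrasG12D mice (-0.41 in both, adjusted p = 0.0207 and 0.0241), and counts per gene do not show point mutations.

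Of the 10 genes, 2 were higher and 2 were lower in NPmut than in control HSPCs at an adjusted p under 0.05 in edgeR's quasi-likelihood test, and 6 did not pass. Over all genes tested, 10.9% passed in this comparison, 5.38% as higher and 5.54% as lower. *Il6ra* and *Il6st* were the genes that rose, and *Stat5a* and *Cish* were those that fell. The NPmut and control mice did not overlap for 5 of the 10 genes, against 22% of all genes. These were *Il6ra*, *Il6st*, *Stat5a*, *Socs2*, and *Socs3*. For *Socs3* the lowest NPmut mouse was at 2.88 and the highest control at 2.85 CPM, and on plain totals the groups overlapped. The median log2 fold change was 0.11 over the 10 genes and 0.01 over all genes tested.

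**Figure D1:**
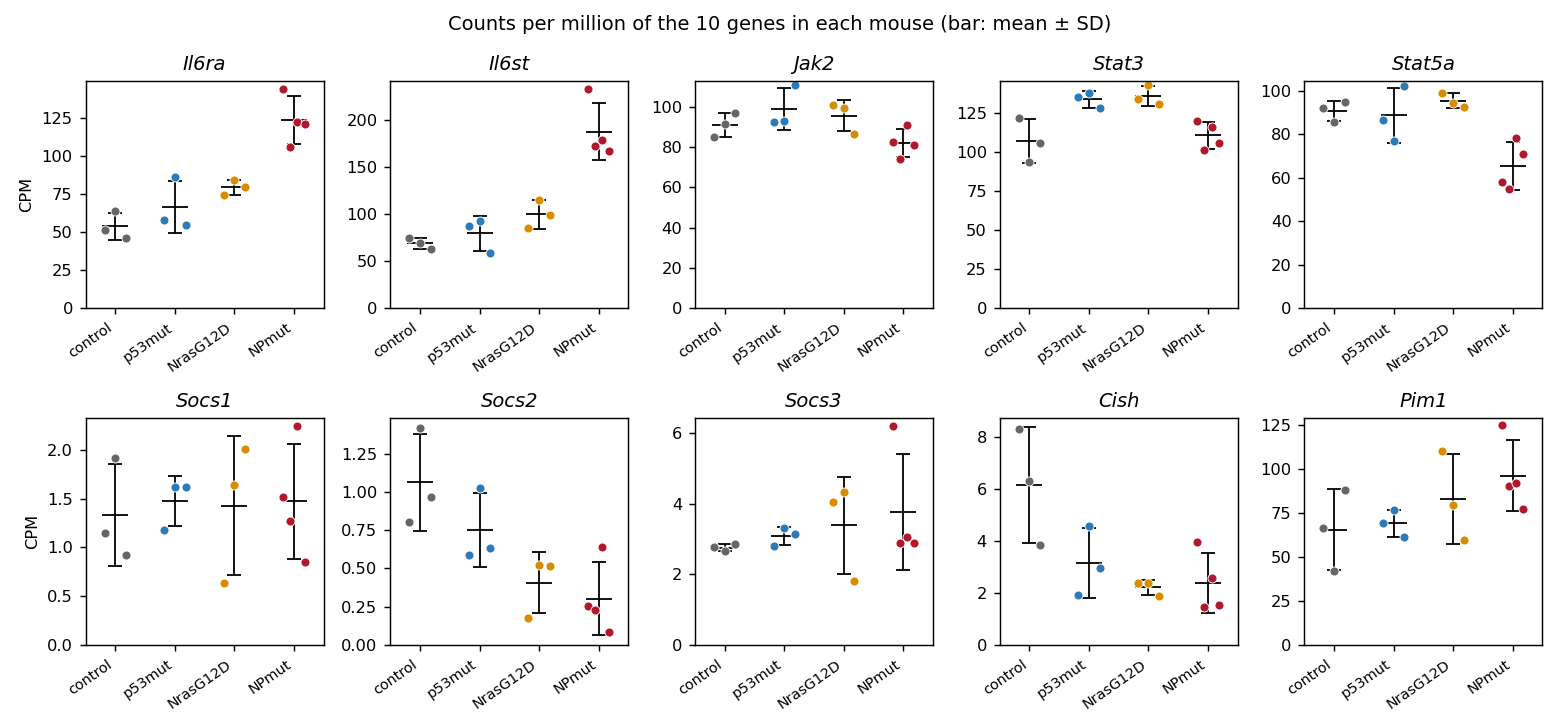
CPM (counts scaled to a library of 1000000, vertical axes, each from 0) of the 10 genes in every mouse, by genotype (horizontal axes). Points are mice and bars are the mean ± SD of 3 control, 3 p53mut, 3 NrasG12D, and 4 NPmut mice; the NPmut mice lie above all other mice for Il6ra (106 to 144 CPM) and Il6st (167 to 233 CPM).

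*Il6ra* (ENSMUSG00000027947; GRCm38 chromosome 3, 89864059 to 89913196, minus strand) was at 51.0, 63.5, and 46.2 CPM in the control mice and at 144, 106, 122, and 121 CPM in the NPmut mice. The p53mut mice were at 57.7, 85.9, and 54.8 CPM and the NrasG12D mice at 74.0, 84.0, and 79.6 CPM. Every NPmut mouse was thus above every mouse of the other groups. Expression in NPmut mice was 2.30-fold that of controls (log2 fold change 1.2 ± 0.164 SE, adjusted p = 0.00053), 1.86-fold that of p53mut mice (adjusted p = 0.00318), and 1.55-fold that of NrasG12D mice (adjusted p = 0.0227). The calls against control and p53mut mice were made under all 23 alternative settings. The call against NrasG12D mice was lost without NrasG12D mouse 1, 2, or 3 (adjusted p = 0.108, 0.0634, and 0.0719) or without NPmut mouse 1 (0.0610). Over the fits that left out a mouse its log2 fold change was 0.55 to 0.70, against 0.64 in the main fit. The share of all genes called in this comparison was 8.88% in the main fit. It was 3.88%, 3.6%, and 4.8% without NrasG12D mouse 1, 2, or 3, and 7.04% without NPmut mouse 1.

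*Il6st* (ENSMUSG00000021756; chromosome 13, 112464070 to 112510086, plus strand) followed the same order of groups. It was at 74.4, 69.1, and 63.3 CPM in control, 87.4, 93.0, and 58.2 CPM in p53mut, 84.8, 115, and 99.3 CPM in NrasG12D, and 233, 173, 179, and 167 CPM in NPmut mice. Again no NPmut mouse overlapped any other mouse. The ratio of NPmut to control mice was 2.73 (log2 fold change 1.45 ± 0.170, adjusted p = 0.000217), that of NPmut to p53mut mice 2.36 (adjusted p = 0.000643), and that of NPmut to NrasG12D mice 1.88 (adjusted p = 0.00428). These calls were made under all 23 alternative settings.

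Per length, both chains were at about the same level. Mean RPKM (CPM of plain totals per kilobase of exons) were 6.40 ± 0.903 (SD) for *Il6ra* and 6.43 ± 0.422 for *Il6st* in the 3 control mice, and 13.6 ± 2.32 and 16.2 ± 3.20 in the 4 NPmut mice. The RPKM ratio of *Il6st* to *Il6ra* was 0.848 to 1.14 in control, 0.828 to 1.18 in p53mut, 0.893 to 1.07 in NrasG12D, and 1.08 to 1.27 in NPmut mice, so that the ranges overlapped. Over the 13 libraries, log2 CPM of both genes correlated with Pearson's r of 0.949, and with 0.670 after each group's mean had been subtracted. These values describe libraries that share groups, and carry no test.

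**Figure D2:**
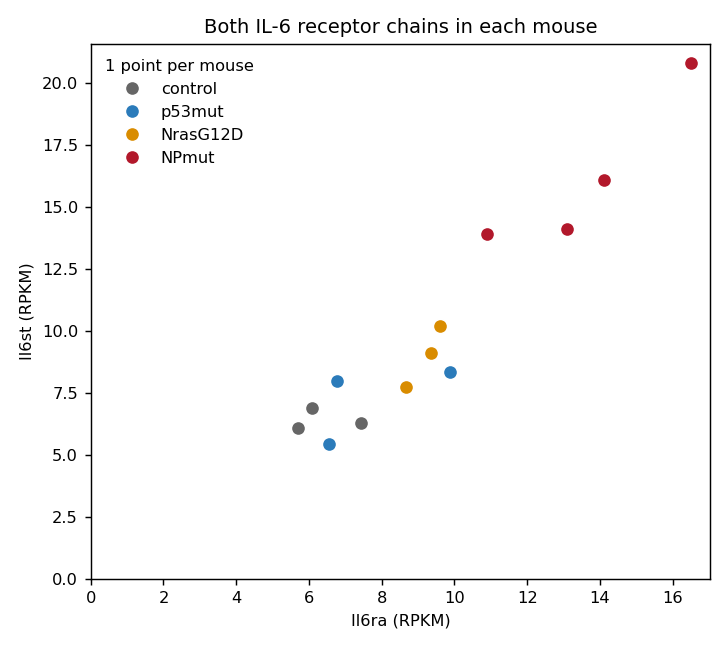
RPKM of Il6ra (horizontal axis) and Il6st (vertical axis), 1 point per mouse, colored by genotype, both axes from 0. Both chains were highest in the 4 NPmut mice, with means of 13.6 and 16.2 RPKM, against 6.40 and 6.43 RPKM in controls.

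The single mutants stood between control and NPmut mice for both receptor chains, in the order p53mut, then NrasG12D. Neither p53mut against control mice (log2 fold changes of 0.30 ± 0.171 and 0.21 ± 0.175, adjusted p = 1) nor NrasG12D against p53mut mice passed the test for either gene, and their mice overlapped. NrasG12D mice did not overlap control mice, with log2 fold changes of 0.57 ± 0.171 for *Il6ra* (adjusted p = 0.269) and 0.53 ± 0.175 for *Il6st* (adjusted p = 0.329). When only these groups entered the fit, both passed (adjusted p = 0.0338 and 0.0395), as did 1.45% of the 16492 genes tested there. Under the main fit only 0.00562% of all genes passed in NrasG12D against control mice, and 0% in p53mut against control mice. The interaction, which asks whether the NPmut level differed from the sum of the single-mutant changes on the log2 scale, was 0.33 ± 0.233 for *Il6ra* (adjusted p = 0.527) and 0.71 ± 0.240 for *Il6st* (adjusted p = 0.153).

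The genes whose log2 CPM followed *Il6ra* most closely, among 12974 genes and over 13 libraries, were *Sh2b3* (r = 0.965, and 0.751 with group means subtracted), which encodes the adaptor LNK, a brake on JAK2 signaling, *Nup210* (0.963 and 0.884), a nuclear pore gene, and *Slc29a3* (0.956 and 0.713), a nucleoside transporter gene. Those closest to *Il6st* were *Map4* (0.963 and 0.768), a microtubule-associated protein gene, *Rap2a* (0.962 and 0.810), which encodes a small GTPase, and *Csf2rb* (0.962 and 0.750), the common β chain of the GM-CSF, IL-3, and IL-5 receptors. The r values fell for every gene of both lists once group means were removed.

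Marker genes of other cells moved with the receptor chains. Of 13 monocyte and macrophage markers tested, 6 were higher and 0 lower in NPmut than in control mice, with a median log2 fold change of 1.39 and a summed level of 1530 to 2620 CPM against 638 to 726 CPM. Of 8 dendritic cell markers tested, 5 were higher and 1 lower (summed 660 to 808 CPM against 295 to 340 CPM). *Csf1r*, the M-CSF receptor gene that defines the monocyte lineage, was at 54.8 CPM on average in control and 153 CPM in NPmut mice (adjusted p = 0.00240), and was present in every library. *Irf8*, a transcription factor gene of the dendritic lineage, was at 135 and 485 CPM (adjusted p = 0.000440). In NrasG12D mice, where both receptor chains were intermediate, the monocyte markers summed to 522 to 801 CPM, which overlapped the controls, and the dendritic cell markers to 416 to 509 CPM, which did not. Most of that dendritic sum came from *Irf8* and *Flt3*, at means of 180 and 159 CPM against 135 and 71.8 CPM in controls. *Zbtb46* was lower than in controls (13.1 against 20.8 CPM). Of both marker lists 0 genes passed in NrasG12D against control mice. The part of these cells in the receptor result was not tested, and in RNA from a bulk sort more cells of a type and more RNA per cell cannot be told apart. Neutrophil and granulocyte-macrophage progenitor (GMP) markers gave 1 of 11 higher.

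**Figure D3:**
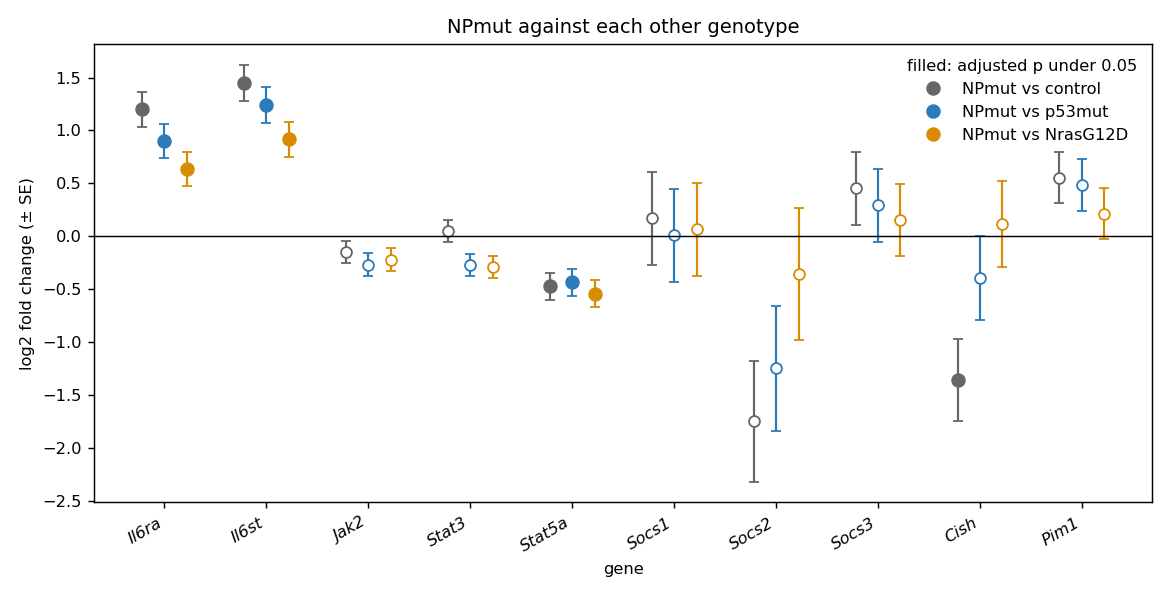
Log2 fold changes (vertical axis, points) with SE (bars) of the 10 genes (horizontal axis) in 4 NPmut mice against 3 control, 3 p53mut, or 3 NrasG12D mice; filled points passed an adjusted p under 0.05. Il6ra, Il6st, and Stat5a passed in all 3 comparisons, and Cish passed against control mice alone, at -1.36.

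Downstream of the receptors, *Stat5a* fell while *Stat3* and *Jak2* did not pass in any comparison. *Stat5a* (ENSMUSG00000004043; chromosome 11, 100859351 to 100885169, plus strand) was at 92.0, 85.6, and 94.6 CPM in control, 86.6, 77.0, and 102 CPM in p53mut, 99.1, 94.1, and 92.6 CPM in NrasG12D, and 57.9, 54.8, 78.0, and 70.8 CPM in NPmut mice. The NPmut mice lay below all control and NrasG12D mice but overlapped the p53mut mice. The log2 fold change was -0.47 ± 0.128 against control (adjusted p = 0.0277), -0.44 ± 0.128 against p53mut (adjusted p = 0.0434), and -0.55 ± 0.128 against NrasG12D mice (adjusted p = 0.0164). The call against controls was lost without control mouse 1, 2, or 3 (adjusted p = 0.0984, 0.0561, and 0.116) or NPmut mouse 1 (0.0738) and with background reads as a covariate (0.134), and that against NrasG12D mice without NrasG12D mouse 1 or 2 (0.0705 and 0.0626). With 1 mouse left out the log2 fold change was -0.57 to -0.40 against controls and -0.64 to -0.48 against NrasG12D mice. With background reads it was -0.57 against controls. Fewer of all genes passed in each of these fits as well. The call against p53mut mice was lost in 10 of 13 fits that left out a mouse, with the log2 fold change between -0.54 and -0.33 and adjusted p up to 0.218. *Stat5b*, the close paralog next to it, fell against NrasG12D mice (-0.40, adjusted p = 0.0215) and was at -0.09 against controls (adjusted p = 0.609). How reads that match both paralogs were counted is not given in the sources used here.

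*Stat3* (ENSMUSG00000004040; chromosome 11, 100885098 to 100939540, minus strand), the main STAT below gp130, was at 122, 93.7, and 106 CPM in control and at 120, 101, 116, and 106 CPM in NPmut mice. The p53mut mice were at 135, 138, and 128 CPM and the NrasG12D mice at 134, 143, and 131 CPM. Both single mutants therefore lay above all control and all NPmut mice, whereas NPmut and control mice overlapped. None of these differences passed: the log2 fold change was 0.32 ± 0.112 in p53mut (adjusted p = 1), 0.35 ± 0.111 in NrasG12D (adjusted p = 0.315), and 0.05 ± 0.104 in NPmut against control mice, with a range of ±2 SE of -0.16 to 0.26. The interaction was -0.62 ± 0.152 (adjusted p = 0.0549) and passed under 5 of 21 alternatives, DESeq2 among them (adjusted p = 0.0103) and the fits without NPmut mouse 2 or 3 (0.0311 and 0.0458). Among all genes 1.74% passed for the interaction, and of the 10 genes 0 passed in edgeR, with 4 at an unadjusted p under 0.05 and 1 called by DESeq2. An unadjusted p under 0.05 was found for 16.1% of all genes in edgeR. *Stat3* and *Stat5a* lie tail to tail and share 72 exonic bases on opposite strands, 0.756% and 1.01% of their exons, and whether counting used the strand is not given in the sources used here.

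*Jak2* (ENSMUSG00000024789; chromosome 19, 29251828 to 29313080, plus strand) varied little. It was at 84.8 to 96.9 CPM in control, 92.5 to 111 CPM in p53mut, 86.6 to 101 CPM in NrasG12D, and 74.0 to 91.1 CPM in NPmut mice, and its log2 fold change in NPmut against control mice was -0.15 ± 0.106 (adjusted p = 0.408). The RPKM ratio of *Stat5a* to *Stat3* was 1.01 to 1.22 in control, 0.747 to 1.06 in p53mut, 0.879 to 0.989 in NrasG12D, and 0.642 to 0.898 in NPmut mice. The NPmut range lay below the control range without overlap and overlapped those of both single mutants.

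RNA of the SOCS feedback genes was at low levels in all 4 genotypes. Mean RPKM in controls were 0.470 for *Socs1*, 0.115 for *Socs2*, 0.988 for *Socs3*, and 0.985 for *Cish*, against 18.8 for *Jak2* and 11.6 for *Stat3*. Raw counts per mouse were 10 to 42 for *Socs1*, 1 to 23 for *Socs2*, 28 to 123 for *Socs3*, and 18 to 144 for *Cish*. At these counts the SE of the NPmut against control log2 fold change was 0.345 to 0.571, compared with 0.104 to 0.170 for the receptor chains, *Jak2*, and the STAT genes.

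*Cish* (ENSMUSG00000032578; chromosome 9, 107296026 to 107302784, plus strand), a STAT5 target, was at 8.28, 6.30, and 3.82 CPM in the control mice. It was at 1.92, 4.57, and 2.95 CPM in p53mut, 2.37, 2.36, and 1.88 CPM in NrasG12D, and 3.94, 1.47, 2.57, and 1.53 CPM in NPmut mice. All 3 mutant groups thus had lower means than controls, and NrasG12D mice did not overlap controls whereas p53mut and NPmut mice did. Against controls the log2 fold change was -1.36 ± 0.385 in NPmut (adjusted p = 0.0352), -1.47 ± 0.424 in NrasG12D (adjusted p = 0.247), and -0.96 ± 0.417 in p53mut mice (adjusted p = 1). These 3 comparisons share the control mice, and NPmut differed from NrasG12D mice by 0.12 ± 0.403 (adjusted p = 0.898). The NPmut call was lost without control mouse 1 or 2 (0.167 and 0.0937) or NPmut mouse 2, 3, or 4 (0.0633, 0.0517, and 0.0641), and with background reads as a covariate (0.261). Background reads of the density found on the receptor genes would make up 2.66% of its control counts.

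*Socs2* (ENSMUSG00000020027; chromosome 10, 95385362 to 95417180, minus strand), which encodes the brake on growth hormone signaling and is likewise a STAT5 target, was highest in control, then p53mut, then NrasG12D, then NPmut mice, at lower counts than *Cish*. It was at 0.805, 1.42, and 0.968 CPM in control, 0.590, 1.03, and 0.637 CPM in p53mut, 0.174, 0.524, and 0.518 CPM in NrasG12D, and 0.253, 0.231, 0.643, and 0.0848 CPM in NPmut mice. NPmut and NrasG12D mice lay below all control mice, but no comparison passed (NPmut against control -1.75 ± 0.571, adjusted p = 0.0631). Without NPmut mouse 3 it did (-2.36, adjusted p = 0.0190). Background of the kind described above would make up 22.6% of its control counts, and that background was itself lower in NPmut and NrasG12D mice.

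*Socs3* (ENSMUSG00000053113; chromosome 11, 117966079 to 117970047, minus strand) encodes the inhibitor that binds gp130 and is induced by STAT3. It was at 2.76, 2.66, and 2.85 CPM in control, 2.80, 3.32, and 3.13 CPM in p53mut, 4.05, 4.32, and 1.81 CPM in NrasG12D, and 6.22, 2.89, 3.06, and 2.88 CPM in NPmut mice. A single NPmut mouse was high and the other 3 were just above the controls. On plain totals NPmut mice 2 and 4 were at 2.58 and 2.70 CPM, and controls at 2.68 to 3.05 CPM. The log2 fold change was 0.45 ± 0.345 (adjusted p = 0.448), with a range of ±2 SE of -0.24 to 1.14. *Socs1* (ENSMUSG00000038037; chromosome 16, 10782240 to 10785536, minus strand), the inhibitor best known for interferon receptors, was at 0.917 to 1.92 CPM in control and 0.848 to 2.25 CPM in NPmut mice (0.17 ± 0.441, adjusted p = 0.849).

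The consensus of STAT dimers, TTCNNNGAA, was searched in the promoters of these genes because *Cish* and *Socs3* are known STAT targets. It is its own reverse complement, so that 1 strand covers both. Windows of 300 bases, 250 before to 50 after a start, were taken from RefSeq (GRCm38.p6), where 9 of the 10 genes matched, with 11 windows. *Socs2* had no window and was not searched. The motif was in the windows of 2 genes, *Cish* and *Socs3*. Among 32851 promoters of the same length 8.3% held it, and 0.457% held at least 2 matches, as *Cish* did. Counted from the RefSeq start, the matches TTCCTGGAA and TTCTTGGAA in *Cish* began at positions 1 and 12. In *Socs3* the match TTCTTAGAA began 154 bases before the RefSeq start. For both genes the GENCODE span given above starts further upstream, so that these matches lie within it. The stretches from 200 bases before to 25 after the start are shown 5′ to 3′ in the direction of transcription, with the matches in capitals, for *Cish* at chr9:107296459-107296683 (plus strand) and *Socs3* at chr11:117969342-117969566 (minus strand).
Cish: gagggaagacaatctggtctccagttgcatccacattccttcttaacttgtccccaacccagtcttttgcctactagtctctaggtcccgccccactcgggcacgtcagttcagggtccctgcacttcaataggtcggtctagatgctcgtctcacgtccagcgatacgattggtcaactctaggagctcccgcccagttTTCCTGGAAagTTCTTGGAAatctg
Socs3: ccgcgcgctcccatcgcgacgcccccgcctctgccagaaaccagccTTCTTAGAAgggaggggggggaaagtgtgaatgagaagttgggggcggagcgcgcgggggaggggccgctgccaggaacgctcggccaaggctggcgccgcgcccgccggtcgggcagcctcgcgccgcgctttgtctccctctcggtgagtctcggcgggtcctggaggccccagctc
A match is a run of letters and not a measured binding site.

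The genes closest to *Cish* over the 13 libraries were *D3Ertd751e* (r = 0.805, and 0.437 with group means subtracted), *Urb2* (0.8 and 0.636), and *Ptpn4* (0.793 and 0.685). Those closest to *Socs3* were *Smox* (0.819 and 0.959), which encodes spermine oxidase, *Icam1* (0.716 and 0.758), the gene of an adhesion molecule, and *Ppp1r16b* (0.710 and 0.701). For *Smox* and *Icam1* the value was higher within groups than across them. Across groups, all of these r values were below those listed for the receptor chains, and *Cish* and *Socs3* have few counts.

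*Cish*, like the HSC and megakaryocyte markers, was lower in NPmut than in control mice. Of 9 HSC markers tested 8 were lower and 0 higher (summed 37.0 to 108 CPM against 190 to 309 CPM), of 8 megakaryocyte markers all 8 were lower (18.8 to 101 CPM against 182 to 270 CPM), and of 12 erythroid markers 3 were lower. In NrasG12D mice, where *Cish* was as low as in NPmut mice, the HSC and megakaryocyte sums were 222 to 251 CPM and 252 to 267 CPM, within the range of control mice, and the erythroid sum was 1040 to 1280 CPM against 1100 to 1660 CPM in control and 382 to 989 CPM in NPmut mice. *Epor*, the erythropoietin receptor gene, was at -1.47 in NPmut against control mice (adjusted p = 0.0598). The part of these cells in the *Cish* and *Stat5a* results was not tested.

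*Pim1* (ENSMUSG00000024014; chromosome 17, 29490753 to 29496112, plus strand), the gene of a serine/threonine kinase induced by STAT3 and STAT5, had the highest RNA level of the 10 per length, with a mean of 23.7 RPKM over all mice. It was at 66.5, 42.0, and 88.0 CPM in control, 69.0, 76.5, and 61.5 CPM in p53mut, 110, 79.4, and 59.4 CPM in NrasG12D, and 125, 90.5, 91.9, and 77.4 CPM in NPmut mice. The NPmut mice lay above the p53mut mice and overlapped the others. No comparison passed (NPmut against control 0.55 ± 0.245, adjusted p = 0.173). An antisense gene, *Gm26885*, covers 14.5% of its exons and had at most 16 counts in a library.

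Against p53mut mice, 2 of the 10 genes were higher and 1 lower in NPmut mice, where 9.95% of all genes passed (4.81% higher, 5.14% lower). The same counts, 2 and 1, were found against NrasG12D mice, where 8.88% passed (3.92% higher, 4.97% lower). In both comparisons the genes were *Il6ra*, *Il6st*, and *Stat5a*. Mice did not overlap for 5 genes against p53mut and 4 against NrasG12D mice, with 19.6% and 20.5% of all genes as background. Of the 10 genes 0 passed in p53mut or NrasG12D against control mice, with 2 and 5 at an unadjusted p under 0.05, and 0 passed in NrasG12D against p53mut mice (background 0%), with 0 at an unadjusted p under 0.05. Of all genes, 2.33%, 9.23%, and 4.84% had an unadjusted p under 0.05 in these comparisons. DESeq2 likewise called 0 of the 10 in these 3 comparisons.

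A list of 80 other genes of the pathway was examined by role, of which 69 were tested. In NPmut against control mice 23 were higher (33.3%) and 5 lower (7.25%), where 5.38% of all genes tested were higher and 5.54% lower, and the median log2 fold change was 0.06. The count of higher genes fell to 10, 12, and 8 without control mouse 1, 2, or 3, to 13 without NPmut mouse 1, to 11 when only these groups entered the fit, and to 5 with background reads as a covariate. The share of all genes called fell as well, from 10.9% in the main fit. It was 6.42%, 6.28%, and 4.41% without control mouse 1, 2, or 3, and 8.2% without NPmut mouse 1. With only these groups it was 5.45%, and with background reads 4.48%. Of the 28 genes called, 9 (*Il27ra*, *Csf2rb*, *Il3ra*, *Sh2b3*, *Pim3*, *Junb*, *Mcl1*, *Ccnd1*, and *Id1*) passed in every fit that left out a mouse, and 2, *Csf2rb* and *Sh2b3*, passed under every alternative.

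**Figure D4:**
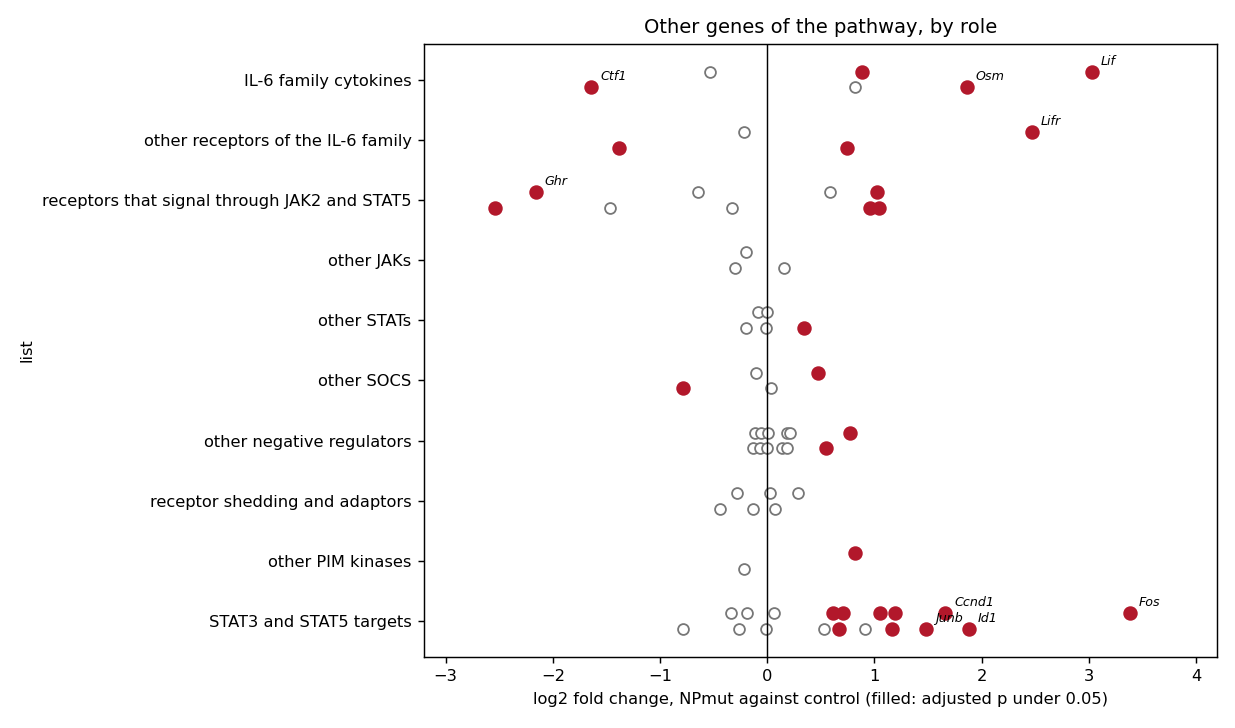
Log2 fold change (horizontal axis) of 69 other pathway genes in 4 NPmut against 3 control mice, by list (vertical axis), 1 point per gene; filled points passed an adjusted p under 0.05, and most called genes with large changes are named. Of the listed STAT3 and STAT5 targets 10 of 18 were higher and 0 lower, whereas 0 of 3 JAK genes and 0 of 6 shedding and adaptor genes passed. The target list leaves out Socs1, Socs2, Socs3, Cish, and Pim1, of which only Cish passed, as lower.

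Among ligands of the family, *Il6* itself was not tested, with at most 11 counts in a library, and *Il11* likewise. *Osm*, the oncostatin M gene, was at 5.12 to 5.71 CPM in the control mice and at 19.2, 21.8, 3.91, and 35.1 CPM in the NPmut mice (1.86, adjusted p = 0.0273). *Lif*, which signals through gp130 as well, was at 0.0618 to 0.345 CPM in control and 3.03, 1.04, 0.483, and 3.65 CPM in NPmut mice (3.03, adjusted p = 0.0368). NPmut mouse 3 was the lowest of its group for both ligands, and for *Osm* it lay below the controls. Both calls were lost without control mouse 1, 2, or 3, that of *Osm* also without NPmut mouse 1 or 2, and that of *Lif* also without NrasG12D mouse 3 (adjusted p up to 0.734 and 0.856 over all alternatives). *Ebi3*, a subunit of IL-27, was higher (0.88) and *Ctf1*, cardiotrophin, lower (-1.64), and these were called in 7 and 8 of 13 fits that left out a mouse. The immediate-early genes, of which 9 of 15 were higher, split the NPmut mice in the same way, with summed levels of 1280, 1090, 307, and 2090 CPM against 334 to 384 CPM in controls. Their part in the ligand result was not tested.

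Among the other receptors, *Il27ra*, the IL-27 receptor gene, was at 10.9, 7.72, and 7.85 CPM in control and 3.54, 2.78, 4.88, and 2.29 CPM in NPmut mice (-1.38, adjusted p = 0.00493), and fell against both single mutants as well (adjusted p = 0.00462 and 0.00497). *Csf2rb* was at 73.2, 67.5, and 58.8 CPM in control and 153, 151, 112, and 122 CPM in NPmut mice (1.02, adjusted p = 0.000900) and rose against both single mutants. The groups did not overlap for either gene. *Il3ra* (1.04, adjusted p = 0.00226), *Csf2rb2* (0.96), *Lifr* (2.47), and *Il31ra* (0.74) were higher too, and *Ghr*, the growth hormone receptor gene, was lower (-2.16). The calls of *Lifr* and *Ghr* were lost without control mouse 3, that of *Csf2rb2* without control mouse 1 or 3, and that of *Il31ra* without any of 9 mice (adjusted p up to 0.0700, 0.0808, 0.240, and 0.629 over all alternatives). *Csf2rb* and *Csf2rb2* are close paralogs, and how reads shared by them were counted is not given in the sources used here. Against controls 3 of the 9 tested receptors that signal through JAK2 and STAT5 were higher and 2 lower, and 2 of the 4 other receptors of the IL-6 family were higher and 1 lower.

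The remaining kinases, STATs, and inhibitors changed little. Of 3 other JAK genes 0 passed, of 5 other STAT genes only *Stat6* did (0.34, adjusted p = 0.0333), and of 12 other negative regulators *Sh2b3* and *Ptpn6*, the gene of the phosphatase SHP-1, did (0.77 and 0.55). When 1 mouse was left out, *Stat6* was called in 6 and *Ptpn6* in 4 of 13 fits. *Sh2b3* was at 46.2, 52.1, and 47.5 CPM in control, 58.6, 63.2, and 64.2 CPM in NrasG12D, and 97.1, 78.6, 82.1, and 73.9 CPM in NPmut mice, with no overlap. Of the 4 other SOCS genes, *Socs5* fell in NPmut against control mice (-0.79, adjusted p = 0.0215) and *Socs6* rose (0.47, adjusted p = 0.0363). The *Socs5* call was lost without control mouse 1 or 3, and that of *Socs6* without 5 different mice (adjusted p up to 0.13 and 0.142). *Socs5* was also called for the interaction (-1.36 ± 0.295, adjusted p = 0.0361), as was *Myc* (-0.77 ± 0.154, adjusted p = 0.0247), and no other gene of the 69 was. *Pim3*, a paralog of *Pim1*, rose from a mean of 11.9 to 21.1 CPM (0.82, adjusted p = 0.00563).

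Of 18 tested genes listed as STAT3 and STAT5 targets, 10 were higher and 0 lower in NPmut than in control mice, with 5.38% of all genes higher, and their median log2 fold change was 0.69, against 0.01 over all genes. This list leaves out the feedback genes *Socs1*, *Socs2*, *Socs3*, and *Cish* and the target *Pim1*, which were described above. Of those only *Cish* passed against controls, and it was lower (-1.36, adjusted p = 0.0352). Against p53mut mice 7 were higher and 1 lower (median 0.60), with 4.81% and 5.14% of all genes. Against NrasG12D mice 6 were higher and 1 lower (median 0.29), with 3.92% and 4.97% of all genes. *Junb* (1.48), *Mcl1* (0.67), *Ccnd1* (1.66), and *Id1* (1.88) passed in every fit that left out a mouse. *Mcl1*, an antiapoptotic gene, was at 122 to 137 CPM in control and 161 to 226 CPM in NPmut mice, and *Ccnd1*, the cyclin D1 gene, at 14.1 to 17.6 and 33.7 to 72.2 CPM. *Hp*, *Cebpb*, *Cebpd*, *Fos*, *Il4ra*, and *Icam1* were the other 6. Of 13 such fits, *Hp* and *Il4ra* were called in 11, *Cebpb* in 9, *Cebpd* in 5, *Icam1* in 3, and *Fos*, at 186, 218, 14.6, and 392 CPM in NPmut mice, in 2. *Myc*, also listed as a target, was at -0.19 against controls (adjusted p = 0.286). It fell against p53mut mice (-0.39, adjusted p = 0.0305) and NrasG12D mice (-0.57, adjusted p = 0.00428). *Junb* and *Fos* are immediate-early genes that other signals induce as well. *Ccnd1* stood at a mean of 39.2 CPM in NrasG12D mice against 15.3 CPM in controls.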

How the data were processed

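Total RNA from 50000 sorted Lin- cKit+ cells of each of 13 mice had been made into libraries with the SMARTer Stranded Total RNA-Seq Pico kit. The authors deposited raw counts per Ensembl gene for all mice in 1 table. The submitters' processing notes name STAR 2.6.1d, R 3.6.1, DESeq2 1.26.0, and the build GRCm38.p6, while the counting program and its strand setting are not given in the sources used here. Reads shared by paralogs or by overlapping genes can therefore be split in ways that cannot be checked. Gene symbols, exonic lengths, and coordinates were taken from GENCODE M21, which holds 54809 of the 54838 IDs, and the other 29 carry 0.0032% of the counts.

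Counts were tested in edgeR 4.0.16 (R 4.3.3) with TMM factors (0.8916 to 1.07), filterByExpr by group, and the robust quasi-likelihood F test on all 13 libraries with 4 group means, with Benjamini-Hochberg adjustment over 17795 genes. Genes were called at an adjusted p under 0.05, and SE is the absolute log2 fold change divided by the square root of F. CPM are counts scaled to a TMM-scaled total of 1000000, RPKM were made from plain totals and kilobases of exons, and correlations used log2 CPM with a prior count of 2. Mice are separate animals of a group. Library totals of 12576174 to 29124022 set the counting precision, so a count of 10 is uncertain by itself. Comparisons with control mice share those mice, as those with NPmut mice share the NPmut mice. The labels give replicate numbers in every group. They do not say whether same-numbered mice belong together. Deviations from the group means correlated weakly between same-numbered control and p53mut mice (r = 0.166, 0.163, and 0.152). In every other pair of groups at least 1 such correlation was under 0.1, although mouse 2 of NrasG12D and NPmut reached 0.294. Whether the numbers stand for pairs cannot be told from these values.

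The 10 genes and all lists were chosen with earlier results of these data known. The text names the 10 genes, the genes of the pathway lists called in NPmut against control mice, and the 3 genes with the highest r to *Il6ra*, *Il6st*, *Cish*, and *Socs3* among genes whose log2 CPM averaged 1 or more. *Stat5b*, *Epor*, *Myc*, *Csf1r*, *Irf8*, *Flt3*, and *Zbtb46* fall outside this rule, and their values had been seen when they were chosen. Alternatives were RLE factors, library totals, DESeq2 1.42.0, no filter, at least 10 counts in every library, only the compared groups, the replicate number as a block, background reads as a covariate, sex as a term, and leaving out each mouse. Protein sequences were not analysed here. 1 gene of the lists is not reported here by name.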

Additional observations from a re-analysis of the deposited data

Results flagged for a closer look

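*Socs3* was flagged because 1 NPmut mouse stood far from the other 3. NPmut mouse 1 was at 6.22 CPM and the others at 2.88 to 3.06 CPM, so that its gap to the nearest mouse was 0.948 of the whole range, above Dixon's critical value for 4 samples. The 10 genes were each tested in the 4 NPmut mice, and chance flags about 5% of such groups. The raw counts were 123 in this mouse and 34 to 75 in the others. The same mouse was also the highest of its group for *Il6ra*, *Il6st*, *Stat3*, *Cish*, and *Pim1*.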

How the results depend on the processing

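The counts of the 10 genes called higher in NPmut mice stayed at 2 against control and p53mut mice under every alternative except no filter, where *Pim1* made it 3 in both. Against controls the count called lower, 2 in the main analysis, was 0 when only the compared groups were fitted, 0 with background reads as a covariate, 1 with the replicate number as a block, 1 with that block among the compared groups and shared numbers, and 0 to 2 when 1 mouse was left out. With the replicate block, *Cish* was at -1.19 (adjusted p = 0.0574), and *Il6ra* and *Il6st* were still called. In p53mut against control mice, the only groups where no same-numbered correlation was under 0.1, the block called 0 of the 10 genes. Against p53mut mice the count called lower, 1 in the main analysis, was 0 with no filter, 0 with only the compared groups, 0 with background reads, and 0 to 1 with 1 mouse left out. Against NrasG12D mice the count called higher was 1 with the block among compared groups and 1 to 2 with 1 mouse left out, and the count called lower was 0 with only the compared groups, 0 with the block among them, and 0 to 1 with 1 mouse left out. In NrasG12D against control mice, where 0 genes were called, 2 were higher with no filter, 2 with only the compared groups, and 1 with the block among them, and 1 was lower under each of these 3. Over all genes these settings called 0.607%, 1.45%, and 1.04%. For the interaction 1 gene was higher with no filter, 1 was lower with DESeq2, 1 with the replicate block, and 1 with sex as a term, and 0 to 1 with 1 mouse left out. The cause of these shifts was not tested.

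The direction changed for single genes that had not passed, and those of NrasG12D against p53mut mice are given by counts alone. In NPmut against control mice, *Stat3* was at -0.0646 with library totals, -0.0132 with background reads, and -0.0363 to 0.17 with 1 mouse left out, *Socs3* at -0.186 with background reads, and *Socs1* at -0.106 to 0.525 with 1 mouse left out. In NrasG12D against control mice, *Stat5a* was at -0.0064 and *Socs3* at -0.185 with background reads, and *Socs1* at -0.223 to 0.47 with 1 mouse left out. In p53mut against control mice, leaving out 1 mouse gave -0.144 to 0.0552 for *Stat5a*, -0.0439 to 0.511 for *Socs1*, and -0.167 to 0.352 for *Pim1*. In NPmut against p53mut mice, *Socs1* was at -0.0689 with library totals, -0.000552 with DESeq2, -0.00461 with at least 10 counts, and -0.266 to 0.17 with 1 mouse left out, and *Socs3* at -0.194 with background reads and -0.0737 to 0.403 with 1 mouse left out. In NPmut against NrasG12D mice, *Socs1* was at -0.000779 with library totals and -0.303 to 0.395 with 1 mouse left out, *Socs3* at -0.000638 with background reads and -0.205 to 0.366, and *Cish* at -0.241 to 0.3.

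Among the other pathway genes, whose alternatives were chosen after seeing the data, the 23 called higher became 15 with library totals, 11 with only the compared groups, 5 with background reads, and 8 to 21 with 1 mouse left out. The 5 called lower became 3 with no filter, 1 with only the compared groups, 3 with the block among them, 0 with background reads, and 1 to 7 with 1 mouse left out. Over all genes in NPmut against control mice, library totals moved the median from 0.01 to -0.11 and called 641 genes higher and 1342 lower in place of 958 and 986. Only the compared groups gave 507 and 426, background reads as a covariate 492 and 305, no filter 1454 and 1389, and DESeq2, on 44944 genes, 1165 and 1308. Genes with few counts, *Socs1*, *Socs2*, *Socs3*, and *Cish*, have the widest errors.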
